A study of Mus musculus with 50 samples.

Results

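The 33 genes described here are best known as genes of neurons, and their transcripts were measured in microglia sorted from the mouse hippocampus. The genes were chosen by symbol. All 33 were found among the 53700 genes counted in each of 50 mice, and 32 of them were among the 16696 genes that passed the filter on low counts, at least 1 CPM (counts scaled to library size with the TMM method) in more than 2 mice. *Tbr1*, a transcription factor of cortical projection neurons, did not pass it. By role, 7 members act at the presynapse, 6 at the postsynapse, 4 in axon and cytoskeleton and 3 in adhesion, 4 bind RNA, 8 are transcription factors and 1 is an enzyme.

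All mice were male C57BL/6J mice. ELS mice had been raised with limited bedding and nesting material from P2 to P9, and CTR mice under standard conditions. The P9 mice received no treatment (12 P9-CTR mice from 5 nests, 13 P9-ELS mice from 4 nests). The P200 mice received an intraperitoneal injection of PBS or of LPS, a bacterial cell wall component, at 1 mg/kg 3 h before perfusion (7 CTR-PBS, 6 ELS-PBS, 7 CTR-LPS and 5 ELS-LPS mice, each group from 5 nests). Mice are named by the first number of their label, taken as the nest, and the second, and within an age each nest belonged to CTR or to ELS only. Live single CD45int CD11b+ cells were sorted from both hippocampi after mechanical dissociation. Myelin was removed on Percoll from P200 brains but not from P9 brains, and the ages came from separate cohorts, so that age and isolation cannot be told apart in any comparison of P9 with P200. The total count per mouse lay between 5152838 and 42231258, with group medians of 18474916 to 22304746.

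Neurons release transmitter from presynaptic vesicles with SNARE proteins and calcium sensors, and receive it through glutamate and GABA receptors held by scaffold proteins in the postsynapse. Growing neurons also make cytoskeletal and adhesion proteins for axon growth, and their transcription factors change between precursor, immature and mature stages. Microglia take up synaptic material and dying neurons in the developing hippocampus, and neuronal RNA can be present in sorted microglia as fragments, free RNA, doublets or low transcription of the same genes. In bulk RNA of sorted cells, fewer neurons or neuronal fragments in a sample and less RNA of a gene per cell cannot be told apart.

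Many neuronal genes carry an RE1 element, the site through which the repressor REST keeps them low in cells that are not neurons. The window from 250 bases before to 50 bases after the start of each gene was searched on both strands for the canonical RE1 motif of 21 letters. Up to 4 mismatches were allowed among its 19 fixed letters. This limit was set after the best matches of the members were known. RefSeq windows (GRCm38.p6 table) existed for 24 members, and 3 of these (12.5%) held a match. The same was so for 74 of 27025 genes with a window (0.274%) and for 0 of 52 other neuronal genes with a window. The 3 sites are shown as the only matches among the members, with the 21 bases of the match in capitals, on the strand of the gene, at their GRCm39 positions.
*Gad2*, chr2:22512169-22512198, plus strand: ctgtGGTAGCACCCTGGACAGCGCGttccg
*Gria2*, chr3:80710291-80710320, minus strand: ccaaAGCGCTGTCCGCGGTGCTAAAatcga
*Syn1*, chrX:20787364-20787393, minus strand: cggaTTCAGCACCGCGGTCAGAGCCttcgc
The *Gad2* site had 4 mismatches and the *Syn1* site 2, each on the strand of the gene, and the *Gria2* site had 2 with the motif on the opposite strand. By the GENCODE annotation the 3 sites lie in annotated UTR exons of these genes. The matches are a description of these letters, and a window without a match says nothing about REST at that gene.

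The sorted cells carried the defining transcripts of microglia. The summed level of 12 microglia markers was 44879 to 71469 CPM in P9 mice and 80399 to 102963 CPM in P200 mice, *P2ry12* among the highest, and none of the 12 was at 0 in any group. The member transcripts took 0.0301% of all counts at P9 and 0.00371% at P200. The 3 libraries with the fewest detected genes stood apart, P9-ELS mouse 3 of nest 19 with 12482 genes, P200-CTR-PBS mouse 1 of nest 1 with 12854 and P9-ELS mouse 2 of nest 19 with 15731. The CTR-PBS mouse had a count for 6 of the 33 members, and 3 of these (*Grin2b*, *Rbfox3* and *Elavl4*) were above all other CTR-PBS mice. The strand setting of the counting is not given in the sources used here. *Nefl* and *Nefm* overlap on opposite strands in 33.6% and 19.4% of their exon bases, and *Prox1* overlaps its antisense gene *Prox1os* in 10.9%. Without the strand, reads from these shared bases cannot be told apart, while reads from the other exon bases are not affected.

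The summed level of the neuronal transcripts was higher in every P9 mouse than in every P200 mouse. Summed over the 33 members, P9-CTR mice had 214, 331 and 461 CPM (lowest, median and highest) with a mean of 331 ± 89.6 (SD, n = 12), and P9-ELS mice had 128, 267 and 331 CPM with a mean of 245 ± 63.6 (SD, n = 13). CTR-PBS mice had 23.8, 40.3 and 51.23 CPM (40.0 ± 10.1, SD, n = 7) and ELS-PBS mice 14.2, 34.5 and 43.0 CPM (33.0 ± 10.4, SD, n = 6). With LPS the sums were 30.6, 44.2 and 50.3 CPM in CTR (42.4 ± 7.57, SD, n = 7) and 25.9, 39.8 and 52.8 CPM in ELS (39.9 ± 9.94, SD, n = 5). The lowest P9 mouse therefore stood above the highest P200 mouse, while the 4 P200 groups overlapped with each other. The mean sum of P9-CTR was 8.28 times that of CTR-PBS, and the mean sum of P9-ELS 7.41 times that of ELS-PBS. Without *Prox1* and *Elavl4*, an alternative chosen after seeing the data, these ratios were 14.0 and 12.1.

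The number of members with at least 1 count moved the same way. P9-CTR mice had a count for 31 to 33 of the 33 members (mean 32.4 ± 0.793, SD, n = 12) and P9-ELS mice for 19 to 33 (30.8 ± 3.75, SD, n = 13). CTR-PBS mice had a count for 6 to 25 members (19.9 ± 6.41, SD, n = 7), ELS-PBS mice for 10 to 25 (19.7 ± 5.39, SD, n = 6), CTR-LPS mice for 20 to 24 (22.3 ± 1.60, SD, n = 7) and ELS-LPS mice for 17 to 27 (20.8 ± 3.90, SD, n = 5). The 19 members of P9-ELS mouse 3 of nest 19 lay within the P200 range, and all other P9 mice were above all P200 mice. With each mouse thinned to 5000000 counts, the group means were 31.75 and 30.0 at P9 and 14.7 to 18.0 at P200. Of the 33 members, 17 had a count in all 25 P9 mice, and 2, *Prox1* and *Elavl4*, had a count in all 25 P200 mice.

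**Figure D1:**
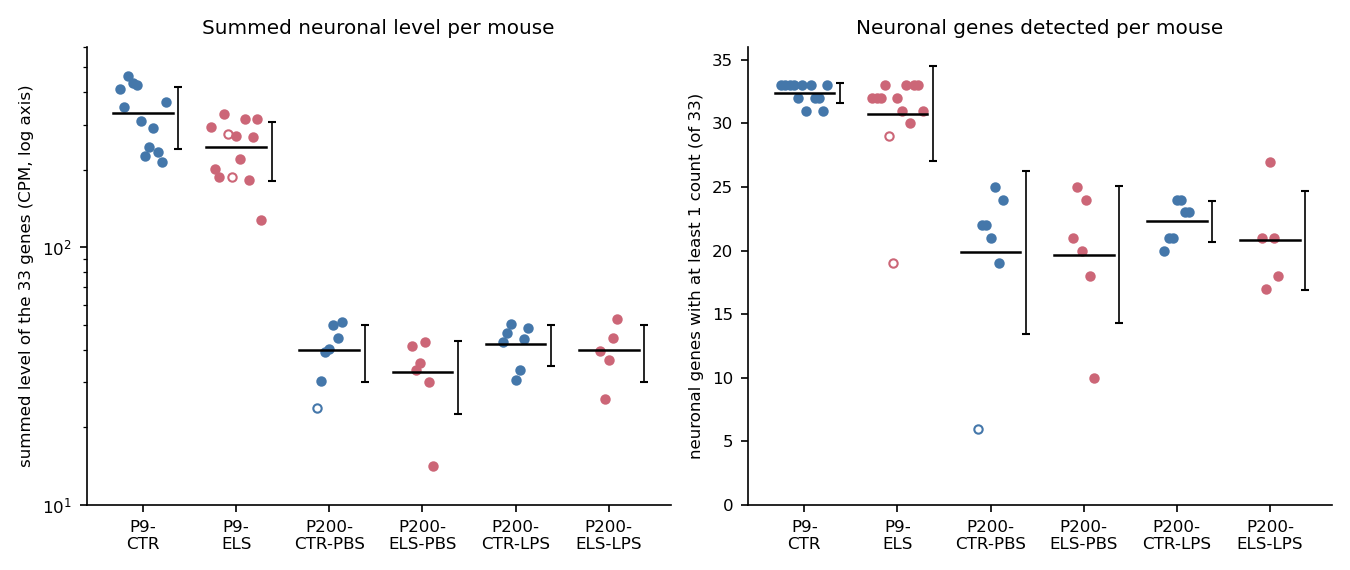
Summed level of the 33 neuronal genes per mouse (left, CPM on a log axis) and number of the 33 with at least 1 count (right) in the 6 groups. Each circle is a mouse, lines are group means and bars SD, and open circles are the 3 libraries with the fewest detected genes. Every P9 mouse (128 to 461 CPM) is above every P200 mouse (14.2 to 52.8 CPM).

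The make-up of the neuronal signal differed between the ages. At P9 the largest shares of the summed CPM came from *Camk2a* (14.6%), a calcium-dependent kinase of the excitatory postsynapse, *Ncam1* (10.9%), a neural adhesion molecule, and *Gap43* (8.48%), a growth cone protein. At P200 *Prox1*, the transcription factor of dentate granule cells that is also known from lymphatic endothelium, took 31.8% of the sum. *Snap25*, a SNARE protein of vesicle fusion, took 13.5%, *Camk2a* 12.2%, the RNA-binding protein gene *Elavl4* 9.90% and *Celf4*, another RNA-binding protein gene, 6.97%. Together these 5 genes held 74.4% of the P200 sum and 37.1% of the P9 sum. By role, axon and cytoskeleton genes held 18.0% of the sum at P9 and 3.64% at P200, adhesion genes 13.5% and 1.40%, and transcription factors 15.3% and 34.2%. These are shares of a sum and were not tested. Per kb of the canonical transcript, the highest members at P9 were *Gap43* (16.3 CPM per kb), *Camk2a* (8.07) and *Snap25* (6.42), and at P200 *Snap25* (2.29), *Prox1* (1.51), *Elavl4* (0.93) and *Camk2a* (0.916).

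**Figure D2:**
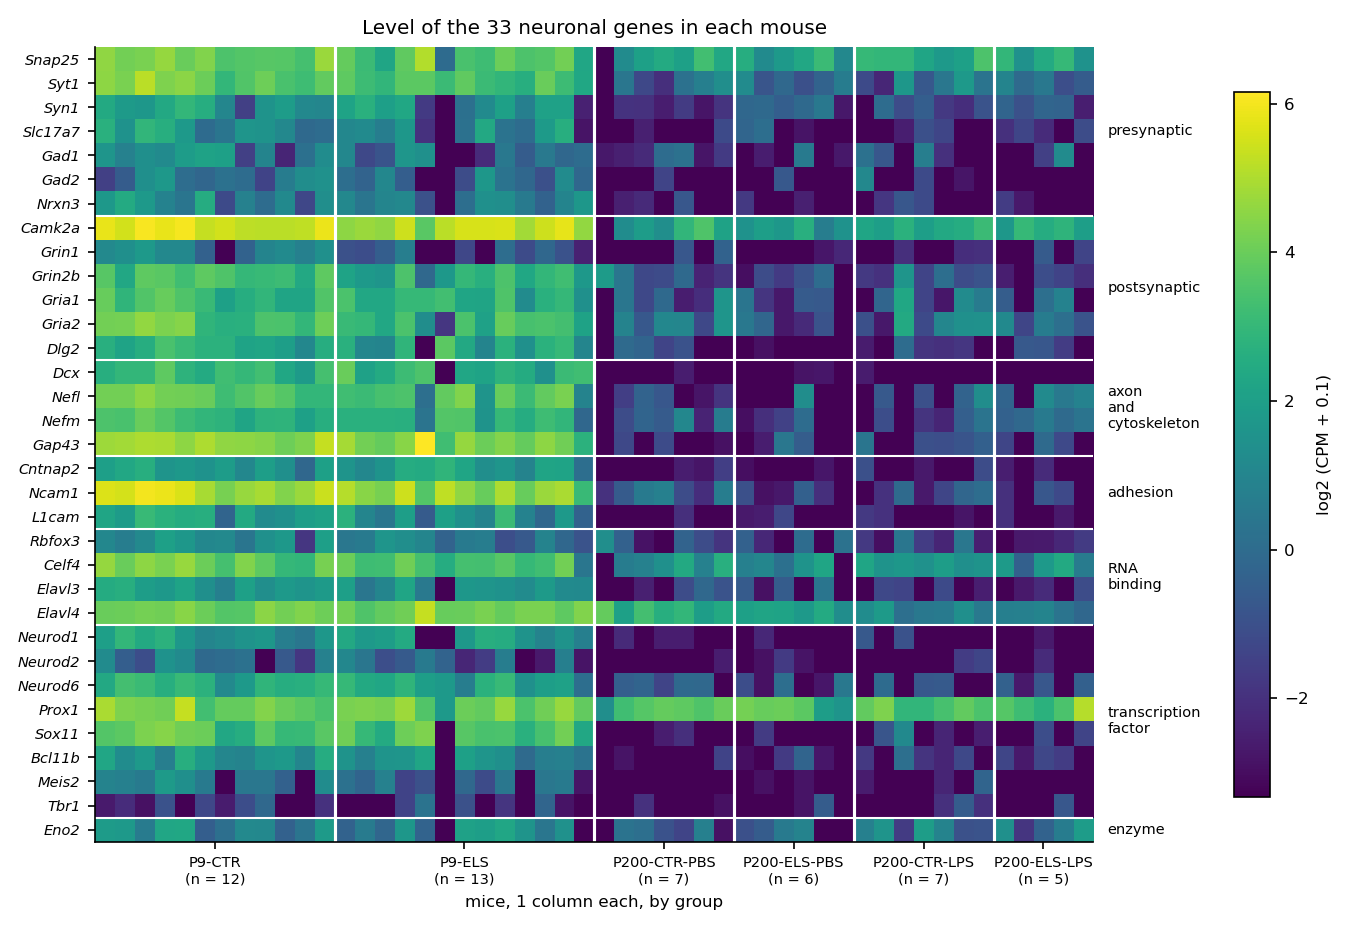
Level of each of the 33 genes (rows, ordered by role) in each of the 50 mice (columns, ordered by group), as log2 of CPM plus 0.1. Most rows are high over the P9 columns and near the floor over the P200 columns, while *Prox1* and *Elavl4* have a count in every mouse.

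The comparison of P200-PBS with P9 mice within each condition asked which transcripts differed between the neonatal and the adult samples. A gene was called when the adjusted p was under 0.05 and the absolute log2 fold change above 1. In CTR, 31 of the 32 members tested were called lower at P200 (18.5% of all genes tested were), and the ranges of 22 did not overlap (10.5% of all genes). In ELS, 28 were called lower (17.5% of all genes), and 8 did not overlap (7.03%). These counts are not a result about the members, because 17 of the 32 members, against 10.8% of all genes tested, passed the filter only through P9 mice and so had to be lower at P200. Of the 15 members that passed the filter at each age by itself, a count chosen after seeing the data, 14 were called lower in CTR (12.1% of the 13645 genes that passed in the same way) and 11 in ELS (11.5%). On the log2 scale their median change was -3.36 in CTR and -3.29 in ELS, against -0.01 and 0.06 over these genes.

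Among the presynaptic genes, *Syt1*, the calcium sensor of synaptic vesicles, was at 7.58, 16.5 and 35.8 CPM (lowest, median and highest) in P9-CTR and at 0, 1.07 and 2.46 CPM in CTR-PBS. It was at 4.92, 8.84 and 15.8 CPM in P9-ELS and at 0.402, 0.773 and 2.28 CPM in ELS-PBS. No P9 mouse overlapped with a P200 mouse of any group, whose highest value was 3.37 CPM. It changed on the log2 scale by -4.12 (SE 0.56, adjusted p = 2.72e-08) in CTR and -3.29 (SE 0.57, adjusted p = 4.63e-06) in ELS. *Snap25* kept more of its level, at 10.1, 16.7 and 26.6 CPM in P9-CTR and 0, 4.13 and 9.66 CPM in CTR-PBS, with a log2 fold change of -1.99 (SE 0.46, adjusted p = 4.40e-04). Of the 3 presynaptic genes that passed the filter at each age, 3 were called lower in CTR and 2 in ELS. *Gad1*, a GABA-synthesizing enzyme, was not called in ELS (log2 fold change -1.99, SE 1.09, adjusted p = 0.140).

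Of the postsynaptic genes, 4 passed the filter at each age and all 4 were called lower in each condition. *Camk2a* was at 35.6, 45.3 and 66.7 CPM in P9-CTR and at 0, 3.66 and 11.7 CPM in CTR-PBS, and at 13.1, 35.7 and 55.22 CPM in P9-ELS and 1.53, 2.96 and 6.19 CPM in ELS-PBS. The lowest of the 25 P9 mice stood just above the highest of the 25 P200 mice. It changed on the log2 scale by -3.42 (SE 0.40, adjusted p = 9.26e-10) in CTR and -3.39 (SE 0.43, adjusted p = 5.81e-09) in ELS. *Dlg2*, a postsynaptic scaffold gene, passed the filter only through P9 mice and so had to be lower at P200. It had 1 count in 1 of 6 ELS-PBS mice against a mean of 4.90 CPM in P9-ELS. The ratio of their CPM values, from summed counts, was 621, with a 95% counting interval of 111 to 24567. The glutamate receptor genes *Grin2b*, *Gria1* and *Gria2* had log2 fold changes of -3.46, -3.46 and -3.36 in CTR and -4.18, -3.93 and -4.04 in ELS.

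Among the axon, cytoskeleton and adhesion genes, the neurofilament genes *Nefl* and *Nefm* and the adhesion gene *Ncam1* passed the filter at each age and were called lower in each condition. *Dcx*, *Gap43*, *Cntnap2* and *L1cam* passed it only through P9 mice and so had to be lower at P200, and their values are a description. *Dcx*, a microtubule protein of migrating immature neurons, was at 3.53, 7.67 and 14.0 CPM in P9-CTR and at 0, 5.65 and 15.7 CPM in P9-ELS, and it had 4 counts in all 25 P200 mice together. The ratio of P9-CTR to CTR-PBS was 1177 (95% counting interval 211 to 46524), and that of P9-ELS to ELS-PBS was 517 (143 to 4271). *Gap43* was at 16.8, 25.3 and 39.7 CPM in P9-CTR and 6.78, 17.4 and 71.3 CPM in P9-ELS, and its highest P200 value was 1.24 CPM. Its fitted log2 fold change was -8.03 (SE 0.83) in CTR and -6.17 (SE 0.78) in ELS. *Ncam1* was at 18.4, 36.1 and 63.3 CPM in P9-CTR and 8.52, 23.6 and 43.6 CPM in P9-ELS, with 1.63 CPM in the highest P200 mouse. It changed by -5.54 (SE 0.56, adjusted p = 1.09e-11) in CTR and by -6.74 (SE 0.66, adjusted p = 4.28e-12) in ELS on the log2 scale. For *Syt1*, *Camk2a*, *Gap43*, *Ncam1* and the adhesion genes *Cntnap2* and *L1cam*, all 25 P9 mice were above all 25 P200 mice. The share of all genes for which this held was not counted, and *Gap43*, *Cntnap2* and *L1cam* passed the filter only through P9 mice.

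The transcription factor gene *Prox1* and the RNA-binding gene *Elavl4* had the smallest fitted changes in CTR. *Elavl4*, a neuronal RNA-binding protein that stabilizes transcripts, was at 12.3, 17.0 and 22.9 CPM in P9-CTR and 3.75, 6.03 and 15.0 CPM in CTR-PBS, and at 11.5, 17.08 and 40.5 CPM in P9-ELS and 2.39, 4.23 and 5.51 CPM in ELS-PBS. The groups overlapped in CTR and not in ELS. It changed on the log2 scale by -1.23 (SE 0.25, adjusted p = 6.83e-05) in CTR and -2.18 (SE 0.28, adjusted p = 6.62e-09) in ELS. *Prox1* was at 9.67, 16.5 and 39.9 CPM in P9-CTR and at 2.49, 12.5 and 15.9 CPM in CTR-PBS, and the groups overlapped. It was not called in either condition (-0.71, SE 0.34, adjusted p = 0.0892 in CTR and -0.57, SE 0.36, adjusted p = 0.204 in ELS) or under any alternative. *Sox11*, a factor of immature neurons, had a mean of 12.9 ± 5.29 CPM (SD, n = 12) in P9-CTR and 3 counts in all CTR-PBS mice together, a ratio of 686 (95% counting interval 235 to 3329). *Meis2*, a homeobox factor, was at 0 in CTR-PBS and at least 73.5-fold lower there than in P9-CTR, computed against a floor of 3 counts over the group. Of the transcription factors, *Prox1* alone passed the filter at each age. *Sox11* and *Meis2* therefore had to be lower at P200, and their values are a description. Of the 3 RNA-binding genes that passed at each age, 3 were called lower in CTR and 2 in ELS.

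Some of these calls hung on the processing or on single mice. *Eno2*, the neuron-specific enolase, had an adjusted p of 0.0497 in CTR and lost its call in 21 of 34 alternatives (adjusted p up to 0.0969). *Gad1* and *Rbfox3*, the gene of the NeuN protein, each lost the CTR call in 7. For *Gad1* these included the fits without 1 of the CTR-PBS mice of nests 1, 5 and 18, and for *Rbfox3* those without 1 of the CTR-PBS mice of nests 5, 8 and 18. In ELS *Syn1*, which coats synaptic vesicles, lost its call without ELS-PBS mouse 2 of nest 20 (log2 fold change -1.71, adjusted p = 0.0512), and *Gad1* gained one without ELS-PBS mouse 1 of nest 17 (-5.09, adjusted p = 0.0029).

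**Figure D3:**
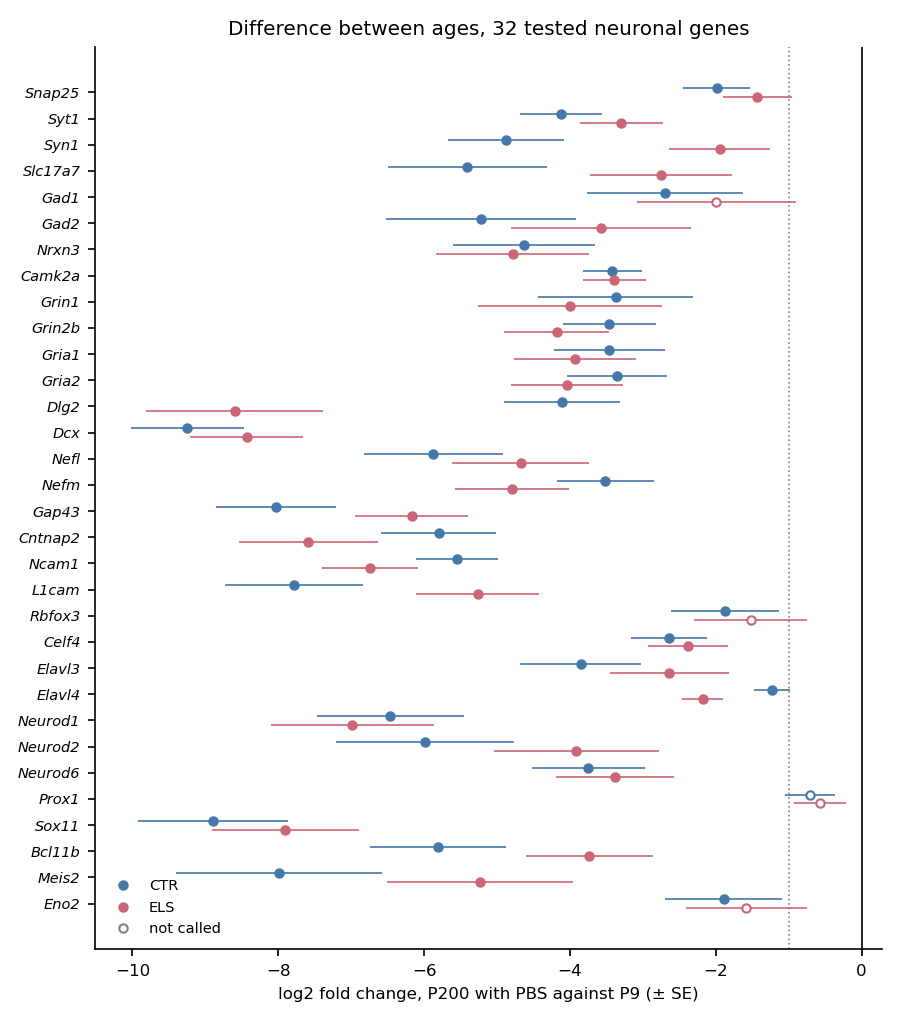
Log2 fold change of P200-PBS against P9 mice for the 32 genes tested, in CTR (blue) and ELS (red), with bars of 1 SE. Open symbols were not called and the dotted line marks -1. *Prox1* is not called in either condition, and fitted values of genes with 0 to 3 counts in the adult group depend on the prior count of the fit.

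Other neuronal genes and some other cell types moved with the members. In a list of 77 further neuronal genes, 25 passed the filter at each age, of which 18 were called lower at P200 in CTR and 13 in ELS, with median log2 fold changes of -2.22 and -1.25. Their summed level was 364 to 1149 CPM at P9 and 129 to 260 CPM at P200. Over all 50 mice the highest were *Map1b* (a microtubule protein, 121 CPM at P9 and 5.17 at P200), *Sox4* (70.8 and 45.4) and *Tubb2b* (a tubulin, 63.1 and 29.5). Of the 7 astrocyte markers that passed at each age, 6 were called lower at P200 in each condition, and 1, *Slc1a3*, a glutamate transporter also known from microglia, was called higher. Without *Slc1a3* the summed astrocyte means were 186 CPM at P9 and 9.07 CPM at P200. The precursors of oligodendrocytes summed to 0 to 20.9 CPM at P9 and 0 to 0.916 CPM at P200. Oligodendrocyte markers summed to 68.4 to 199 CPM at P9 and 75.4 to 200 CPM at P200, mostly from *Cnp* (113 and 96.6 CPM). Of the 6 tested, *Mag* and *Mobp* were called higher at P200 in each condition and *Mog* lower in CTR. Of the 5 that passed the filter at each age, 1 was called higher in each condition and 1 lower in CTR. Endothelial markers summed to 1.77 to 54.7 and 30.3 to 99.7 CPM, mostly from *Pecam1* (29.2 and 48.2 CPM). Of the 6 tested, *Cdh5*, *Cldn5* and *Slco1a4* were called lower at P200 in each condition and *Kdr* higher in ELS. Only 3 endothelial markers passed the filter at each age, of which 1 was called lower in each condition and 1 higher in ELS. Choroid plexus markers summed to 0 to 13.3 and 0 to 7.99 CPM, and erythrocyte markers to 0 to 52.4 and 0.0458 to 29.6 CPM. Their part in the levels of the members was not tested.

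ELS was compared with CTR at P9, just after the stress. No member was called by edgeR, DESeq2 or limma, and edgeR called none of the 16696 genes (0% of all genes), and 2 members against 5.47% of all genes had an unadjusted p under 0.05. The log2 fold change was negative for 30 of the 32 members and for 49.4% of all genes, with a median of -0.48 against 0.00. The members are not independent of each other, since they rise and fall together between mice. *Grin1*, a subunit of every NMDA receptor, was at 0, 2.02 and 3.30 CPM in P9-CTR and at 0, 0.368 and 1.56 CPM in P9-ELS. It changed by -1.98 (SE 0.78, adjusted p = 0.896), and the groups overlapped. *Syt1* and *Ncam1* came next, with -0.77 (SE 0.38, adjusted p = 0.908) and -0.64 (SE 0.35, adjusted p = 0.920). The mean sum of P9-CTR was 1.35 times that of P9-ELS, and the groups overlapped between 214 and 331 CPM. By nest, the mice of CTR nests 15 and 17 had 352 to 461 CPM, above every P9-ELS mouse, while those of CTR nests 51, 52 and 58 had 214 to 367 CPM and those of the 4 ELS nests 128 to 331 CPM. Nests 15 and 17 also had the highest total counts of their group, 25708447 to 31020979 against 13605733 to 19939011. Total counts of the P9-ELS mice were 5152838 to 36031616. The summed astrocyte markers moved with the members across the 25 P9 mice (r = 0.86). The part of depth or of astrocyte RNA in the difference was not tested. Of the 69 further neuronal genes, 62 had a negative log2 fold change. Each nest had 1 condition, so that the condition was compared between 5 CTR and 4 ELS nests, and with counts summed per nest no member was called either.

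At P200, the comparisons of ELS with CTR used the same PBS and LPS mice as the LPS comparisons below, so they are not independent of them. With PBS no member was called (0.156% of all genes were), 8 members had an unadjusted p under 0.05 (9.71% of all genes) and 16 of 32 log2 fold changes were negative (47.9% of all genes). *Dlg2* had counts in 4 of 7 CTR-PBS mice, at 0, 0.284 and 0.874 CPM with 51 counts in all, and 1 count in 1 of 6 ELS-PBS mice. The ratio was 50.1 (95% counting interval 8.59 to 2016), and the test gave -4.76 (SE 1.23, adjusted p = 0.0739). *Syn1* went the other way, at 0, 0.156 and 0.214 CPM in CTR-PBS (18 counts) and 0.0543, 0.817 and 1.29 CPM in ELS-PBS (113 counts), with 2.61 (SE 0.79, adjusted p = 0.142). The groups overlapped through 1 ELS-PBS mouse. Both were called with edgeR's likelihood-ratio test (adjusted p = 0.00630 for *Dlg2* and 0.0427 for *Syn1*) and with DESeq2 (0.00772 and 0.0463), and *Dlg2* also without the 3 libraries with the fewest detected genes (-4.99, adjusted p = 0.0323). *Elavl4* changed by -0.87 (SE 0.28, adjusted p = 0.192). With LPS no member was called either (0% of all genes), and 4 had an unadjusted p under 0.05 (4.78% of all genes). The smallest p belonged to *Gad2*, the other GABA-synthesizing enzyme (-5.90, SE 1.92, adjusted p = 0.762), *Meis2* (-4.42, SE 1.71, adjusted p = 0.862) and *Grin2b* (-2.07, SE 0.83, adjusted p = 0.862). *Gad2* and *Meis2* were at 0 in ELS-LPS, and against the floor of 3 counts over the group they were at least 9.19-fold and 3.35-fold lower there. Each rested on 1 CTR-LPS mouse, at 2.07 CPM for *Gad2* (next highest 0.338) and 0.729 CPM for *Meis2* (next highest 0.0974). Without it the *Gad2* bound was 1.68-fold and the mean of *Meis2* was below the floor.

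LPS was compared with PBS within each condition at P200, which asked how the challenge changed the adult transcriptome. Of the 32 members, 3 were called in CTR (9.62% of all genes), 2 of them upward (6.02%) and 1 downward (3.6%). The ELS comparison called 2 members (7.86%), 1 upward (4.69%) and 1 downward (3.17%). *Elavl4* was lower with LPS in each condition. It was at 3.75, 6.03 and 15.0 CPM in CTR-PBS and at 1.00, 1.41 and 3.46 CPM in CTR-LPS, and at 2.39, 4.23 and 5.51 CPM in ELS-PBS and 0.795, 1.62 and 1.85 CPM in ELS-LPS. The groups did not overlap in CTR or in ELS, which held for 2.56% and 4.35% of all genes in this direction. It changed on the log2 scale by -1.93 (SE 0.28, adjusted p = 5.60e-07) in CTR and -1.51 (SE 0.33, adjusted p = 7.07e-04) in ELS, and the call was kept in all 35 alternatives, with values of -2.15 to -1.65 in CTR and -1.63 to -1.37 in ELS. PBS and LPS mice were both present in 10 nests, and in 10 of 10 all LPS mice were below all PBS mice. Since each nest had 1 condition, this follows from the lack of overlap and adds nothing to it. The exon overlap of *Elavl4* with its neighbour *Gm33070* was 3.79%.

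The other calls with LPS rested on few counts, and the genes in question did not pass the filter in P200 mice alone. *Sox11* had 51 counts in 4 of 7 CTR-LPS mice and 3 counts in CTR-PBS, a ratio of 18.0 (95% counting interval 5.82 to 90.2), with a log2 fold change of 3.84 (SE 1.1, adjusted p = 0.0113). CTR-LPS mouse 3 of nest 5 alone was at 2.15 CPM against a group median of 0.0729, and without it the change was 2.36 (adjusted p = 0.148). *Meis2* was called higher in CTR (4.42, SE 1.37, adjusted p = 0.0228), at least 6.37-fold above the floor of 3 counts over the group, and without CTR-LPS mouse 3 of nest 18, at 0.729 CPM, the change was 2.45 (adjusted p = 0.203) and the bound 1.36-fold. *Dlg2* was called higher in ELS (4.38, SE 1.3, adjusted p = 0.0179) with 21 counts in 3 of 5 ELS-LPS mice against 1 count in ELS-PBS. That ratio was 39.2 (95% counting interval 6.30 to 1619), and without ELS-LPS mouse 2 of nest 4 the change was 3.93 (adjusted p = 0.0548). The calls of *Sox11*, *Meis2* and *Dlg2* were also lost when only the groups compared were fitted (adjusted p = 0.125, 0.104 and 0.0511) and with limma's voom (0.407, 0.529 and 0.273). Leaving out a PBS mouse added calls. Without ELS-PBS mouse 1 of nest 17 the neurofilament genes *Nefm* (3.45, adjusted p = 0.00497) and *Nefl* (7.69, adjusted p = 1.49e-04) were called higher in ELS, and *Nefm* was at 2.08 (SE 0.79, adjusted p = 0.0791) with it. *Nefm* gained this call in 5 of 35 alternatives, among them DESeq2 (adjusted p = 0.0307) and edgeR's likelihood-ratio test (0.0358). In CTR the same held for *Bcl11b*, a transcription factor, without mouse 2 of nest 18 (4.18, adjusted p = 0.00660), for *Gad2* without mouse 1 of nest 8 (5.91, adjusted p = 0.00958), for *Gap43* without mouse 1 of nest 5 (2.91, adjusted p = 0.0436) and for *L1cam* without mouse 1 of nest 15 (3.57, adjusted p = 0.0399).

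Of the 5 members that led the adult sum, *Elavl4* was called with LPS and *Prox1*, *Snap25*, *Camk2a* and *Celf4* were not. *Prox1* changed by 0.08 in CTR and 0.32 in ELS on the log2 scale, and it reached 34.0 CPM in ELS-LPS mouse 1 of nest 20, against a group median of 10.9. *Snap25* was at 0.61 (adjusted p = 0.472) in CTR and 0.22 (adjusted p = 0.860) in ELS. Within nests the LPS mice were all above the PBS mice in 8 of 10 nests for *Snap25* and for *Camk2a*, 7 for *Celf4* and 3 for *Prox1*. They were all below in 1, 1, 2 and 6 nests. The only PBS mouse of nest 1, a library with few detected genes, had no count of *Snap25*, *Camk2a* or *Celf4*. The same was not counted over all genes, and the nest numbers were not taken as pairs, so these counts are a description only. Among the further neuronal genes, *Sox4*, a transcription factor of immature neurons that other cells express too, was called lower with LPS in each condition without overlap, from a mean of 79.8 to 16.4 CPM in CTR (-2.29, SE 0.26, adjusted p = 1.61e-09) and from 68.6 to 10.1 CPM in ELS (-2.76, SE 0.31, adjusted p = 1.42e-09). Of the same list *Cplx1* (3.54) and *Shank2* (3.95) were called higher and *Nova2* (-3.84) and *Reln* (-4.10) lower in CTR, and 3 genes higher in ELS, among them *Celf5* (3.57) and *Dpysl3* (2.86), all with means under 1 CPM in each of the 2 groups compared.

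**Figure D4:**
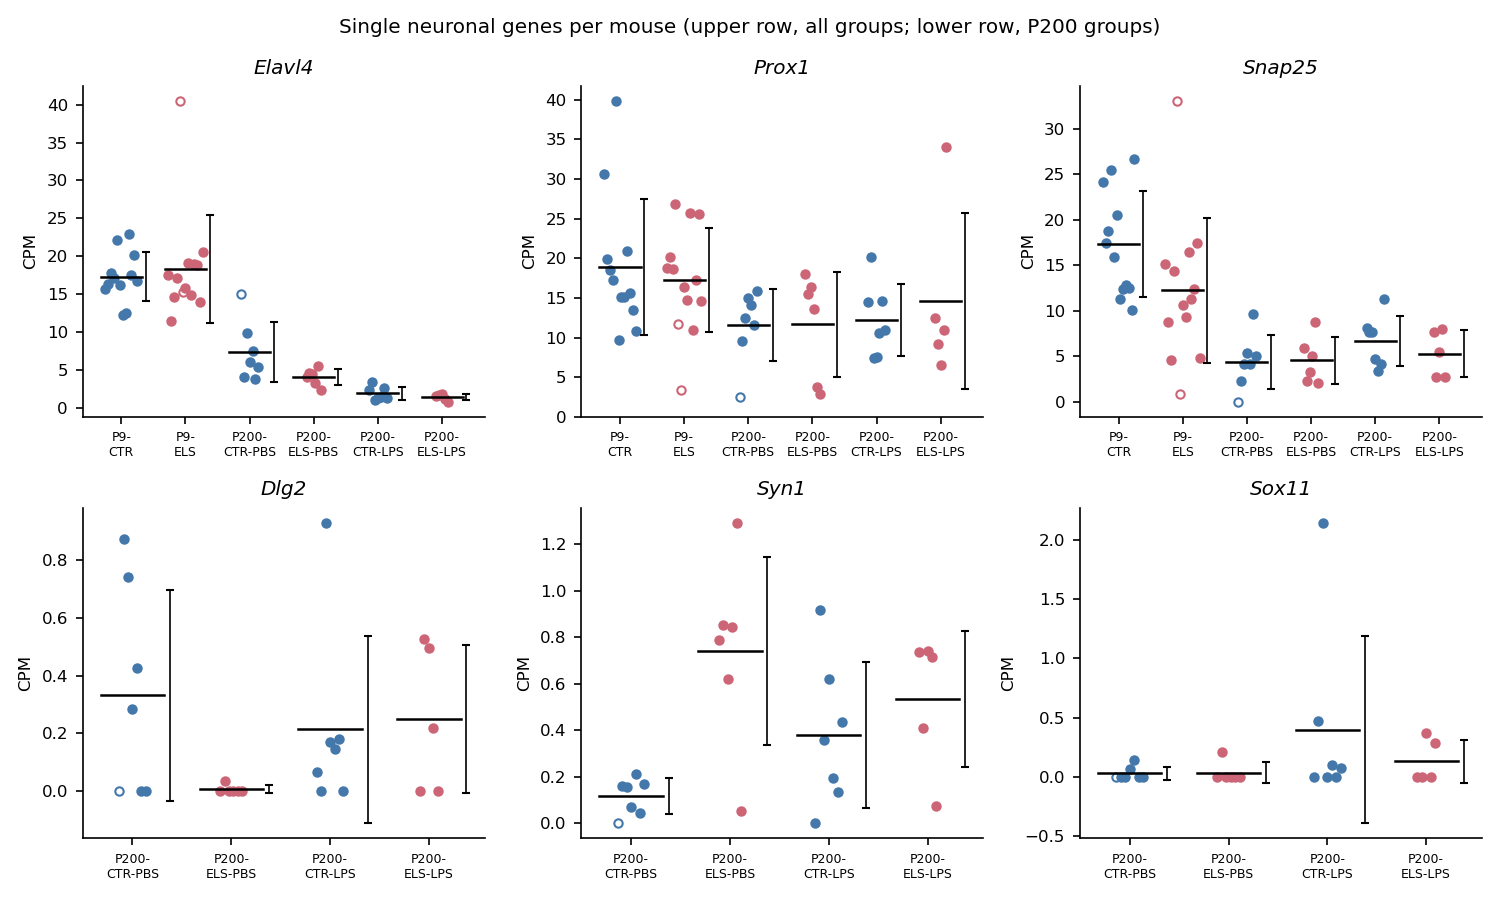
CPM of single genes per mouse, with group means and SD. The upper row shows *Elavl4*, *Prox1* and *Snap25* in the 6 groups, and the lower row *Dlg2*, *Syn1* and *Sox11* in the P200 groups. All LPS values of *Elavl4* (0.795 to 3.46 CPM) lie below the PBS values of the same condition, and *Sox11* is above 1 CPM in a single CTR-LPS mouse (2.15 CPM). Open circles are the 3 libraries with the fewest detected genes.

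No member passed the test of an interaction of age and condition (0.0299% of all genes did) or of LPS and condition (0%), so that no age or LPS effect on a member was shown to differ between CTR and ELS. With an unadjusted p under 0.05 were 5 members in each, against 10.3% and 5.87% of all genes. For age and condition the smallest p belonged to *Dlg2* (-4.49, SE 1.34, adjusted p = 0.260), *Syn1* (2.93, SE 0.93, adjusted p = 0.267) and *Elavl4* (-0.95, SE 0.35, adjusted p = 0.322). For LPS and condition it belonged to *Dlg2* (5.1, SE 1.55, adjusted p = 0.381), *Gad2* (-7.08, adjusted p = 0.442) and *Nefm* (3.16, adjusted p = 0.445). The LPS effect on *Elavl4* differed by 0.42 (SE 0.42, adjusted p = 0.971).

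The number of detected genes varied between mice, and its relation to the members is given within each age as a description. Points share the library, so depth and complexity enter each axis. Across 25 P9 mice the log2 summed level rose with the number of other genes detected (Pearson r = 0.53, Spearman rho = 0.74), with r at 0.77 once the 2 mice farthest from the median were left out. Within P9-CTR r was 0.71 (n = 12, 0.56 without the 2 farthest) and within P9-ELS 0.34 (n = 13, 0.75). Across 25 P200 mice r was 0.38 and rho 0.09, and r fell to -0.15 without the 2 farthest mice, on which the relation rests. Within CTR-PBS r went from 0.76 to -0.26 without them (n = 7), within CTR-LPS it was -0.57 (n = 7, -0.82), and within ELS-PBS it was 0.92 (n = 6, 0.50 without mouse 2 of nest 20). No r is given for the 5 ELS-LPS mice, which are too few. The number of members detected followed the number of other genes detected at each age, with r = 0.89 at P9 (0.47 without the 2 farthest) and 0.83 at P200 (0.57), and with r of 0.81 and 0.74 after thinning. The summed level had an r of 0.30 with the total count at P9 and 0.08 at P200.

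**Figure D5:**
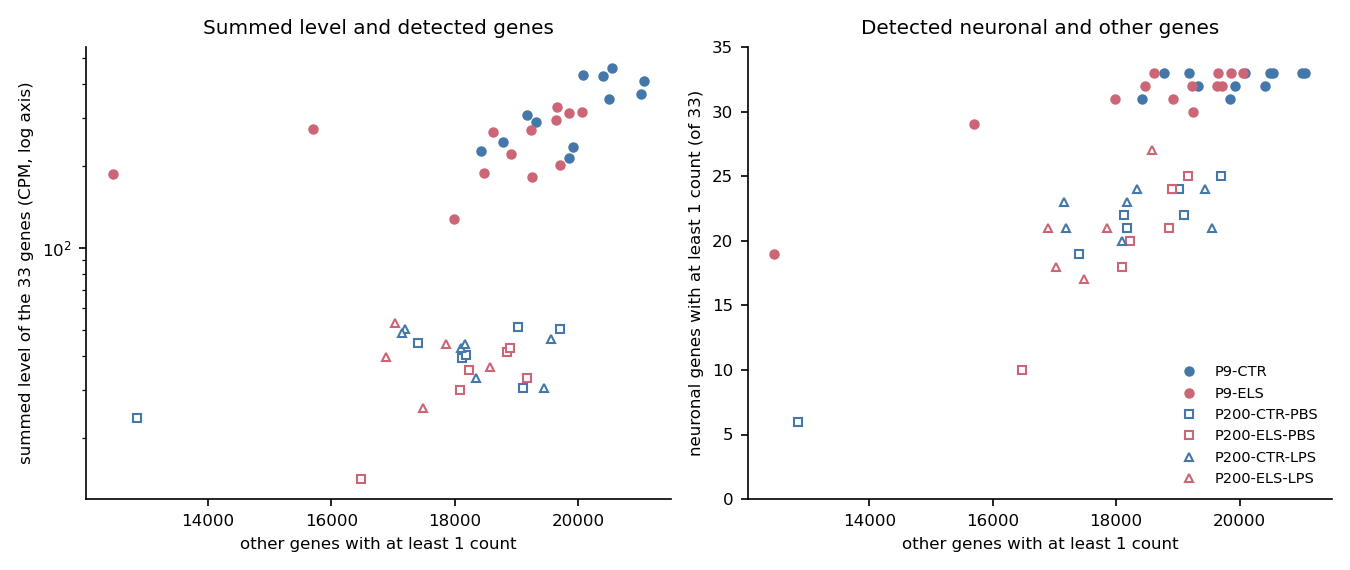
Summed level of the 33 genes (left, CPM on a log axis) and number of them detected (right) against the number of other genes detected, per mouse and group. The libraries with the fewest detected genes have the fewest members detected (6 in P200-CTR-PBS mouse 1 of nest 1 and 19 in P9-ELS mouse 3 of nest 19), while every P9 mouse has a higher summed level than every P200 mouse.

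The correlations of the members with each other were higher across P9 mice than across P200 mice, where many members had few counts. Each member was set against the sum of the other members after centring on the group means. At P9 the median r was 0.49 over 33 members (n = 25 mice), and 13 members were above 0.5, led by *Celf4* (0.82), the AMPA receptor gene *Gria1* (0.81) and *Syt1* (0.80). The lowest were *Gad2* (0.02) and *Elavl4* (0.03). At P200 the median r was 0.23, and *Celf4* alone was above 0.5 (0.66). Only 15 of the 32 members tested passed the filter in P200 mice by themselves, and counting error at few counts lowers r. The lower median at P200 therefore cannot tell members that moved together less from members with few counts. The part of low counts in this and the following P200 values was not tested. The sum of the members followed the sum of the further neuronal genes at P9 (r = 0.97) and not at P200 (r = -0.12). With the astrocyte markers r was 0.86 at P9 and 0.04 at P200, and with the microglia markers -0.06 and -0.26. *Slc1a3* made up 37.5% of the summed astrocyte means at P9 and 98.0% at P200, so the P200 value mostly describes that gene.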

How the data were processed

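Each of 50 mice gave 1 poly-A RNA library of sorted microglia. The authors trimmed the reads (cutadapt 2.10), aligned them to GRCm39 and counted unique exonic reads per gene with HTSeq 0.11.0, and the deposited values are raw counts. The annotation release and strand setting are not given in the sources used here. Totals of 5152838 to 42231258 counts limit the precision of low genes, and counting intervals and floors cover counting error only.

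The filter asked for 1 CPM or more in over 2 mice. Groups were compared with the quasi-likelihood test of edgeR 4.0.16 (R 4.3.3, TMM) on 6 group means, two-sided, with Benjamini-Hochberg adjustment over 16696 genes. The test was checked on simulated counts with 1 spread for all genes, set below the common spread fitted to these data. That check says nothing about calls that rest on few counts or on 1 mouse. Levels, detection, thinning and promoter matches used pandas 2.3.3, scipy 1.17.1 and numpy 2.4.6 in Python 3.11.15. Gene positions came from GENCODE on GRCm39.

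Members and gene lists were chosen with earlier results of these data known. All members could be named, with full statistics for up to 8 called members of smallest adjusted p per comparison or, with none called, the 3 of smallest p, and of the other lists the highest genes and those called with ELS or LPS. Single mice were named after their values were seen. Alternatives were edgeR's likelihood-ratio test, DESeq2 1.42.0, limma 3.58.1 with voom, and other filters and scalings. Nest sums, a replicate block and fits without each P200 mouse in turn were also used. Single P9 mice were not left out of the tests. The labels do not say how mice were assigned to litters or batches. Some genes of the other lists are not reported here.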

Additional observations from a re-analysis of the deposited data

Results flagged for a closer look

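In 13 of 44 group and measure pairs tested, the highest or lowest mouse lay apart from the others by more than Dixon's 95% limit, where chance gives about 1 in 20. A group with all mice but 1 at 0 meets the limit by construction.

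CTR-PBS mouse 1 of nest 1 had 6 members detected against 19 in the nearest mouse and 12854 genes detected against 17424 in the nearest. The same mouse was the highest of CTR-PBS for *Grin2b*, at 3.56 CPM. CTR-LPS mouse 3 of nest 5 was the highest of its group for *Grin2b* (3.00 CPM), *Sox11* (2.15 CPM) and *Dlg2* (0.930 CPM). ELS-PBS mouse 1 of nest 4 was the highest for *Dlg2* (0.0356 CPM) and *Sox11* (0.214 CPM). *Gad2* was highest in CTR-PBS mouse 1 of nest 8 (0.284 CPM), ELS-PBS mouse 1 of nest 11 (0.517 CPM) and CTR-LPS mouse 2 of nest 1 (2.07 CPM). *Meis2* was highest in CTR-LPS mouse 3 of nest 18 (0.729 CPM), and *Nefm* in ELS-PBS mouse 1 of nest 17 (0.925 CPM).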

How the results depend on the processing

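No result changed direction where it was called, and 396 of 424 main comparisons with an alternative stayed within 1.5 times the count or 1 SD. Members called for ELS against CTR with PBS went from 0 to 2 with the likelihood-ratio test, to 2 with DESeq2 (*Dlg2* and *Syn1* in each) and to 1 without the 3 libraries with the fewest genes. Members called with LPS in CTR were 1 with only the groups compared and 1 with voom, and in ELS 1 with only the groups compared. With the replicate block the LPS calls were 1 in CTR and 1 in ELS (*Elavl4* in each), and 0 for the interaction of LPS and condition, with *Sox11* at 3.10 (adjusted p = 0.407), *Meis2* at 4.17 (0.223) and *Dlg2* at 4.14 (0.0554). The correlation of deviations within the 10 nests was -0.041 to 0.084, so the numbers were not taken as pairs. With 1 P200 mouse left out, calls with LPS were 2 to 4 in CTR and 1 to 4 in ELS. Calls with age were then 28 to 31 in CTR and 27 to 29 in ELS, and single P9 mice were not left out. As mean log2 CPM the members stood at 2.36, 1.66, -1.54, -1.69, -1.26 and -1.42 (P9-CTR, P9-ELS, CTR-PBS, ELS-PBS, CTR-LPS, ELS-LPS). Without *Prox1* and *Elavl4*, chosen after seeing the data, the P200 sums were 21.0, 17.25, 28.2 and 23.8 CPM. With 5 counts as the limit, members detected were 31.6 in P9-CTR and 13.2, 16.4 and 14.8 in ELS-PBS, CTR-LPS and ELS-LPS, and thinned CTR-LPS mice had 18.0. The relation of the summed level to detected genes had r = 0.84 at P9 and 0.65 at P200 on mean log2 CPM, and 0.77 at P9 without the 3 libraries. Adult levels under 0.1 CPM rest on a few counts, and differences at that level were not detectable at this depth.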
